A study of Mus musculus with 16 samples.

Results

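Entry into mitosis, segregation of the chromosomes and cytokinesis are carried out by a set of genes that dividing cells transcribe together, and 42 of them, chosen by symbol, were followed gene by gene in RNA sequencing (RNAseq) libraries of mouse CD4+ T cells. All 42 symbols were matched to 1 row each of the 53090 genes in every deposited table. The members code for CDK1 and its cyclins (5 genes), the Polo and Aurora kinases with the chromosomal passenger complex (5), the spindle checkpoint and the anaphase-promoting complex APC/C (6), the centromere and kinetochore (4), condensin I with topoisomerase II and Ki-67 (7), the mitotic kinesins (7), and spindle assembly and cytokinesis (8). AIM2 is a cytosolic sensor of double-stranded DNA, and the study compared wild-type (WT) C57BL/6 mice with Aim2-deficient (Aim2-/-) mice on the same background. Naïve splenic CD4+ T cells (Tn) were isolated with magnetic beads as CD44low CD62Lhigh cells and lysed without culture. The cells called Treg were CD4+ T cells stimulated for 48 h with antibodies to CD3 and CD28 together with recombinant human TGF-beta and recombinant mouse IL-2. They were taken while differentiation was under way and were not sorted for FOXP3 in the sources used here. Each of the groups WT Tn, Aim2-/- Tn, WT Treg and Aim2-/- Treg had 4 libraries, 16 in all. Age and sex of the mice are not given in the labels. The labels do not say that the libraries of a group came from separate mice, so p-values measure the spread between these libraries, which may in part be technical.

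A resting T cell is outside the cell cycle, and stimulation through the T cell receptor with costimulation and IL-2 drives it into repeated divisions. CDK1 bound to cyclin A or cyclin B starts mitosis, Polo-like kinase 1 and the Aurora kinases build and correct the spindle, the checkpoint holds APC/C until every kinetochore is attached, and condensin with topoisomerase II compacts and untangles the chromatids. In resting cells most of these genes are held silent by the DREAM complex, which binds a promoter element called CHR, and in dividing cells B-MYB and FOXM1 act through the same element, often beside boxes bound by NF-Y.

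The libraries held from 22516424 to 34533316 counts, and 3 counts, taken as the smallest measurable signal, corresponded to 0.0869 to 0.133 CPM (counts scaled by library size). This floor takes account of counting error alone. Aim2 lay at 32.04 to 37.8 CPM in WT Tn against 6.44 to 9.21 in Aim2-/- Tn, and at 36.1 to 43.7 against 7.29 to 10.95 in Treg, so no Aim2-/- library overlapped the WT libraries of its state. The summed level of 8 general T cell genes was 4586 to 5426 CPM in Tn and 2028 to 2252 in Treg. Foxp3, which codes for the lineage factor of regulatory T cells, had 1.97 to 3.98 CPM in the Tn libraries and 283 to 574 in the Treg libraries. In WT Tn, replicates 1 and 2 stood apart from replicates 3 and 4: the summed activated or regulatory T cell list (8 genes) had 320 and 314 CPM against 157 and 158, and the plasma cell list, nearly all of it Xbp1, had 178 and 197 against 42.4 and 49.2. The Aim2-/- Tn libraries lay between, at 240 to 306 and 84.5 to 135 CPM. The gap in the activated or regulatory list was mainly Ctla4 (79.4 and 79.7 against 12.7 and 17.4 CPM) and Icos (122.9 and 123 against 34.7 and 37.3). Foxp3, Il2ra and Tnfrsf9 of that list went the other way. The naive T cell list (7 genes) was also higher in WT Tn replicates 1 and 2, at 5957 and 6171 against 4500 and 4435 CPM. B cell, CD8 T cell, NK cell, myeloid and erythroid lists summed to at most 20.3 CPM in any library. Of these, the erythroid genes were at 1.22 to 3.997 CPM in WT Tn and 5.33 to 7.82 in Aim2-/- Tn, and the B cell genes at 1.54 to 2.14 and 2.42 to 3.04 CPM.

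The letters of CHR (TTTGAA) and of the NF-Y box (CCAAT) were searched on both strands from 250 bases before to 50 bases after each transcription start, in the promoter sequences of RefSeq on GRCm38.p6. Promoters were listed for 36 of the 42 genes (38 promoters, as Ect2 and Prc1 had 2 each). Those of Ccna2, Kif20a, Tpx2, Smc4, Aurkb and Shcbp1 were not analysed here. TTTGAA was present in 30 of the 38 promoters (78.95%), against 17.89% of the 32851 promoters of all genes. CCAAT was present in 29 (76.32%, against 37.41%), and both in 26 (68.42%, against 6.953%). In 27 promoters a TTTGAA lay within 50 bases of the start, and in 1 promoter a TTTGAA overlapped a CCAAT. All 6 kinesin promoters held TTTGAA, as did 5 of 6 in the condensin, topoisomerase and Ki-67 group, 7 of 8 for spindle assembly and cytokinesis, and 2 of 4 for the centromere and kinetochore. Anln, Kif15, Kif20b and Kif2c held TTTGAA alone, and Bub1, Ccnb1 and Cenpe held CCAAT alone. Birc5, Knstrn, Mad2l1, Ncaph and Nusap1 held neither. A match is a description of these letters and no evidence of binding.

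The following 150-base stretches, from 120 bases before to 30 bases after the start, are shown in the direction of transcription, with TTTGAA or CCAAT in capitals and their reverse complements as TTCAAA and ATTGG. They were chosen after the values were seen. Cdk1 had the largest difference between Tn and Treg, Ccnb2, Cdc20, Ube2c and Top2a carry both motifs close to the start, Cenpa carries both and had the smallest called difference, and Ncaph carries neither and was among the called genes.
Cdk1 (chr10:69352883-69353032, minus strand): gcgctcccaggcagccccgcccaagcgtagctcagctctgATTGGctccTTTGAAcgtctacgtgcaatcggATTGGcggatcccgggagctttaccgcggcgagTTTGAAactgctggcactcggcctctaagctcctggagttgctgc
Ccnb2 (chr9:70421525-70421674, minus strand): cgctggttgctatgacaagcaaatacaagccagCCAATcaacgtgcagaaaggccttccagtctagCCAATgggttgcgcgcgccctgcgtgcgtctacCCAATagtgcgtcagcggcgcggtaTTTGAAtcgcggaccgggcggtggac
Cdc20 (chr4:118437314-118437463, minus strand): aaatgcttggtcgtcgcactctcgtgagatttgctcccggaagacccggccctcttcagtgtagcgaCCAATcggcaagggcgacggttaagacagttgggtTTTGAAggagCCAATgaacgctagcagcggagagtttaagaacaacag
Ube2c (chr2:164769809-164769958, plus strand): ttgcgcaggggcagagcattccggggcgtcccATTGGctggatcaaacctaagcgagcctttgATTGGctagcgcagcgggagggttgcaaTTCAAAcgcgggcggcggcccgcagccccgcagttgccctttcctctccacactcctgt
Top2a (chr11:99024160-99024309, minus strand): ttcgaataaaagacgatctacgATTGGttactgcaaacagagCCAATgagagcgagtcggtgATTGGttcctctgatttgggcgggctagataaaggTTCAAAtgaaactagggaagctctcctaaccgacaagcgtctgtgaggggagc
Cenpa (chr5:30666766-30666915, plus strand): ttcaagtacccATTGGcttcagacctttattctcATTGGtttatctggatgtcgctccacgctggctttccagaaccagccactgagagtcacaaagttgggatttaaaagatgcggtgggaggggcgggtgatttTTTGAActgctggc
Ncaph (chr2:127133925-127134074, minus strand): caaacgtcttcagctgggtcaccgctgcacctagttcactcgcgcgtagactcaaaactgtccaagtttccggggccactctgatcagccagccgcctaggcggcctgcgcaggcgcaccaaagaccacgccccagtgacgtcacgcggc

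Among other mitosis genes, which are listed by function and are no members, TTTGAA was found in 40.54% of the promoters of kinetochore and checkpoint genes, in 40.62% of those of kinesin and spindle genes, in 33.33% of those of entry and exit switches, in 30.77% of those of cohesin and condensin II, in 29.63% of those of transcription factors and in 19.05% of those of APC/C subunits and regulators. In each of these lists the share of TTTGAA was above that of all promoters, for APC/C only slightly (4 of 21 promoters). In each it was below that of the 42 genes. CCAAT was less frequent in cohesin and condensin II (30.77%) than in all promoters (37.41%), and more frequent in the other lists. Promoters were listed for 11 of the 16 cohesin and condensin II genes and for 10 of the 16 entry and exit switches.

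**Figure D1:**
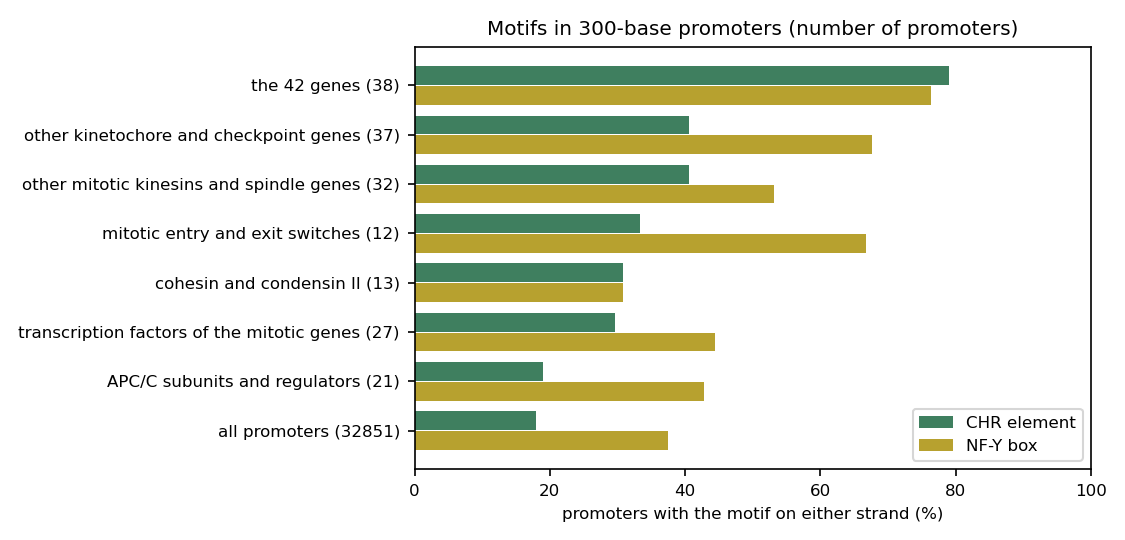
The bars give the share of 300-base promoters, in percent, that hold the CHR letters (TTTGAA, green) or the NF-Y letters (CCAAT, ochre) on either strand, with the number of promoters of each list in parentheses. The 42 genes have the longest bars for both motifs, 78.95% and 76.32%, and all promoters stand at 17.89% and 37.41%.

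In Tn cells of either genotype the 42 genes were low with 1 exception. The median level over the 8 Tn libraries was under 1 CPM for 18 genes, from 1 to under 10 CPM for 19, from 10 to under 100 for 4 (Smc2, Ncapd2, Cenpa and Mad2l1) and above 100 for Smc4 alone. In Treg cells the medians ran from 33.4 CPM (Anln) to 1282 CPM (Mki67), and 29 genes were at 100 CPM or more. The 42 genes together made up 557 ± 37.4 CPM in WT Tn, 553 ± 31.99 in Aim2-/- Tn, 8612 ± 209 in WT Treg and 8364 ± 193 in Aim2-/- Treg (mean and SD, n = 4). Smc4 gave 55.9% to 66.1% of that sum in the Tn libraries and 3.78% to 4.62% in the Treg libraries. In bulk RNA, fewer cells in the cycle and less RNA per cell cannot be told apart.

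Relative to the mean, most of the 42 genes varied less between the libraries of a group in Treg than in Tn. The coefficient of variation between the 4 libraries (SD as a percentage of the mean) had a median over the 42 genes of 24.4% in WT Tn, 24.1% in Aim2-/- Tn, 5.06% in WT Treg and 5.33% in Aim2-/- Treg. It reached 78.3% for Kif4 in WT Tn and 86.4% for Shcbp1 in Aim2-/- Tn, where both genes were near the floor. The coefficient includes counting error, which is larger at the low counts of Tn, and its part was not tested. Smc4, well counted in both states, had 337 ± 28.7 CPM in WT Tn and 363 ± 23.3 in WT Treg (mean ± SD). In Aim2-/- cells it had 357 ± 22.2 CPM in Tn and 353 ± 14.7 in Treg. In Tn cells 27 of the genes had at least 10 counts in all 8 libraries. Bub1 and Shcbp1 reached 10 counts in 3 of these libraries, Anln in 1 and Ttk in none.

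**Figure D2:**
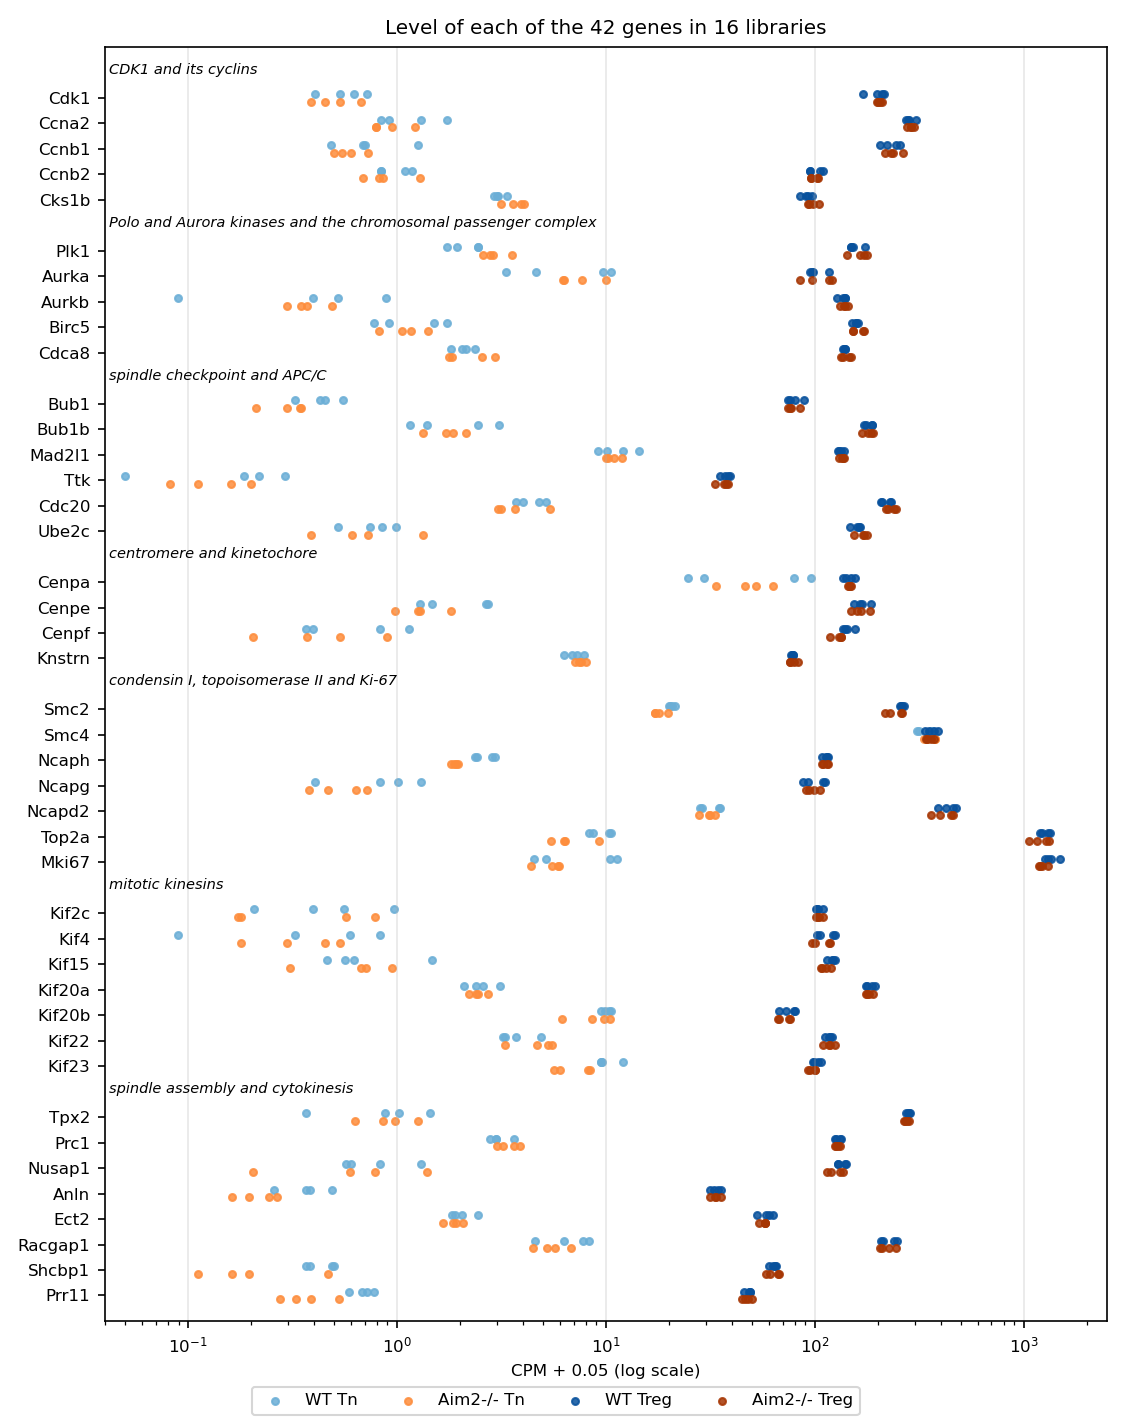
Each point is 1 library, with the level in CPM plus 0.05 on a log axis and the 42 genes in rows grouped by role (light blue for WT Tn, orange for Aim2-/- Tn, dark blue for WT Treg and brown for Aim2-/- Treg). In 41 rows the 8 Treg points lie to the right of the 8 Tn points, and in the Smc4 row they overlap.

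WT Treg cells were compared with WT Tn cells to see how far each gene was induced by 2 days of stimulation in Treg conditions. All 42 genes passed the filter on low counts, 11 of them only through their level in Treg, since 31 had 10 counts in every library of the comparison. Of the 42 genes, 41 were higher in WT Treg (edgeR adjusted p from 5.1e-10 to 0.0167), where 37.7% of all genes tested were called higher, and none was lower, where 39.2% were. The median log2 fold change was 6.41, against -0.05 over all genes tested. In Aim2-/- cells the same 41 genes were higher and none lower (39.1% and 40.2% of all genes), with a median of 6.87, and 14 of the 42 passed the filter only through their level in Treg. Among the genes with 10 counts in every library, 30 of 31 were called higher in WT and 27 of 28 in Aim2-/- cells. Within each genotype the Tn and Treg libraries of 41 of the 42 genes did not overlap. Of all genes tested, 37.9% were separated in this direction in the WT comparison and 38.5% in the Aim2-/- comparison. For the 41 genes no Tn library of either genotype reached any Treg library. For 35 genes the lowest Treg library was at least 10 times the highest Tn library, and the ratio ran up to 253 for Cdk1. The shares of all genes that meet these last 2 conditions were not counted.

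The genes that start mitosis had the highest median change of the roles, 7.91 on the log2 scale in WT and 8.28 in Aim2-/- cells. Cdk1, the kinase itself, had 0.482, 0.355, 0.6702 and 0.573 CPM in the WT Tn libraries (replicates 1 to 4) and 209.8, 214, 169 and 198 CPM in WT Treg. The log2 fold change was 8.51 (standard error, SE, 0.17, edgeR adjusted p = 5.1e-10) and the largest of the 42, and in Aim2-/- cells it was 8.72 (0.14, edgeR adjusted p = 2.6e-12). Ccnb1, which codes for cyclin B1, went from 0.655, 0.434, 1.21 and 0.6403 CPM to 244, 255, 204 and 220.4 CPM, which was 8.25 on the log2 scale (SE 0.24, edgeR adjusted p = 2.9e-09). The smallest change in this role was that of Cks1b, a small CDK-binding subunit that also serves in SCF-Skp2 degradation of p27. Cks1b was at 2.86, 2.995, 2.97 and 3.303 CPM in WT Tn and 97.3, 90.8, 84.6 and 92.6 CPM in WT Treg, with a log2 fold change of 4.86 (0.092, edgeR adjusted p = 5.1e-10). Every Tn library of these genes lay below every Treg library by a wide margin, also for Ccna2 (cyclin A2) and Ccnb2 (cyclin B2), with log2 fold changes of 7.91 and 6.70.

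Among the kinases and the chromosomal passenger complex, the difference between Aurora A and Aurora B was already present in the Tn level. Aurkb, the kinase of the passenger complex, was at 0.345, 0.0394, 0.838 and 0.472 CPM in WT Tn and 139.9, 139, 128 and 137 CPM in WT Treg, a log2 fold change of 8.28 (SE 0.36, edgeR adjusted p = 4.4e-08). One of its Tn libraries was under the floor of 3 counts. Aurka, the kinase of the spindle poles, had 10.5, 9.58, 3.27 and 4.55 CPM in WT Tn and 97.7, 95.1, 96.7 and 117 CPM in WT Treg, so its log2 fold change was 3.81 (0.34, edgeR adjusted p = 6.3e-06). Per kilobase of exon (FPKM), the 2 kinases ended close together in WT Treg, at 40.2 ± 4.096 for Aurka and 46.2 ± 1.84 for Aurkb, whereas in WT Tn they were at 2.75 ± 1.42 and 0.144 ± 0.112. Birc5, which codes for the passenger subunit survivin, went from 0.724, 0.867, 1.68 and 1.45 CPM to 157, 149.9, 158 and 161 CPM, with log2 fold changes of 7.002 in WT and 7.19 in Aim2-/- cells. Plk1 (Polo-like kinase 1) and Cdca8 (borealin) had log2 fold changes of 6.17 and 6.03 in WT.

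All 6 checkpoint and APC/C genes were higher in Treg. Ttk, the checkpoint kinase MPS1, was the lowest of the 42 in Tn, at 0.241, 0, 0.168 and 0.135 CPM in WT Tn and 0.149, 0.0619, 0.1098 and 0.0322 CPM in Aim2-/- Tn, against 34.9, 38.1, 36.9 and 39.3 CPM in WT Treg. Its log2 fold change was 7.97 (SE 0.31, edgeR adjusted p = 1.6e-08) and depends on how counts near 0 are treated. Mad2l1, the MAD2 protein that inhibits CDC20, had 14.4, 12.1, 10.01 and 9.099 CPM in WT Tn and 129, 133, 129.6 and 138 CPM in WT Treg, the smallest change of this role at 3.48 (0.14, edgeR adjusted p = 1.9e-08). The kinases Bub1 and Bub1b (the latter BUBR1, without catalytic activity of its own) rose by 7.61 and 6.47 on the log2 scale. Cdc20, the activator of APC/C, and Ube2c, its ubiquitin-conjugating enzyme, rose by 5.59 and 7.70.

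The centromere and kinetochore genes were all higher in WT Treg, by amounts from 1.29 to 7.79 on the log2 scale. Cenpf, a large kinetochore and nuclear matrix protein, was at 0.345, 0.315, 1.09 and 0.775 CPM in WT Tn and 139.9, 156, 142 and 136 CPM in WT Treg (log2 fold change 7.79, SE 0.28, edgeR adjusted p = 1.3e-08). Cenpa, the histone H3 variant that marks centromeres, had 79.7, 95.3, 24.5 and 29.3 CPM in WT Tn and 148, 155, 141 and 136 CPM in WT Treg. Its Treg libraries were all above its Tn libraries, and replicates 1 and 2 of WT Tn lay far above replicates 3 and 4. The log2 fold change of Cenpa was 1.29 in WT (SE 0.41, edgeR adjusted p = 0.0167) and 1.53 in Aim2-/- cells (0.15, edgeR adjusted p = 3.8e-06), the smallest of the 41 called genes in both, and without the filter on low counts it was not called in WT (edgeR adjusted p = 0.0601). In WT it was 2.29 with replicates 3 and 4 alone and 0.79 with replicates 1 and 2 alone. Cenpe, the kinetochore motor, and Knstrn (kinastrin, a spindle protein of the kinetochore) rose by 6.34 and 3.42.

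Smc4 was the exception. SMC2 and SMC4 form the ring of both condensins, CAP-H, CAP-G and CAP-D2 (Ncaph, Ncapg and Ncapd2) complete condensin I, and CAP-H2, CAP-G2 and CAP-D3 complete condensin II. Smc4 (chr3:69004738-69034623 on GRCm38, plus strand) had 364, 315, 359 and 309 CPM in WT Tn, 342, 375, 333 and 376 CPM in Aim2-/- Tn, 353, 336, 389 and 373 CPM in WT Treg and 369, 342, 339 and 361 CPM in Aim2-/- Treg. The states overlapped, with log2 fold changes of 0.05 in WT (SE 0.078, edgeR adjusted p = 0.552) and -0.07 in Aim2-/- cells (0.076, edgeR adjusted p = 0.409). The microRNA genes Mir15b and Mir16-2 lie within Smc4, and all Smc4 counts were whole numbers, so no read was divided between genes. Smc2 went from 19.99, 20.1, 21.3 and 20.7 CPM to 266, 259.6, 260.5 and 256 CPM in WT, a log2 fold change of 3.61 (0.064, edgeR adjusted p = 5.1e-10).

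Per kilobase, the subunits, each present once in its complex, were far apart in Tn and closer in Treg. In WT Tn the FPKM was 64.6 ± 5.51 for Smc4 and 3.75 ± 0.113 for Smc2, with 5.04 ± 0.594 for Ncapd2, 0.602 ± 0.0699 for Ncaph and 0.119 ± 0.0535 for Ncapg (mean ± SD, n = 4). In WT Treg it was 69.6 ± 4.47 for Smc4, 47.5 ± 0.748 for Smc2, 69.7 ± 6.04 for Ncapd2, 26.2 ± 0.775 for Ncaph and 14.2 ± 1.71 for Ncapg. The condensin II genes, which are no members and were chosen after the values were seen, also differed among themselves. Ncaph2 was at 36.9 ± 0.435 FPKM in WT Tn and 63.9 ± 3.13 in WT Treg, and Ncapd3 at 10.3 ± 0.5201 and 14.4 ± 0.555. Ncapg2, at 0.147 ± 0.0561 and 16.2 ± 0.7999, was low in Tn like Ncapg. In both condensins the CAP-G subunit had the lowest FPKM in WT Tn.

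**Figure D3:**
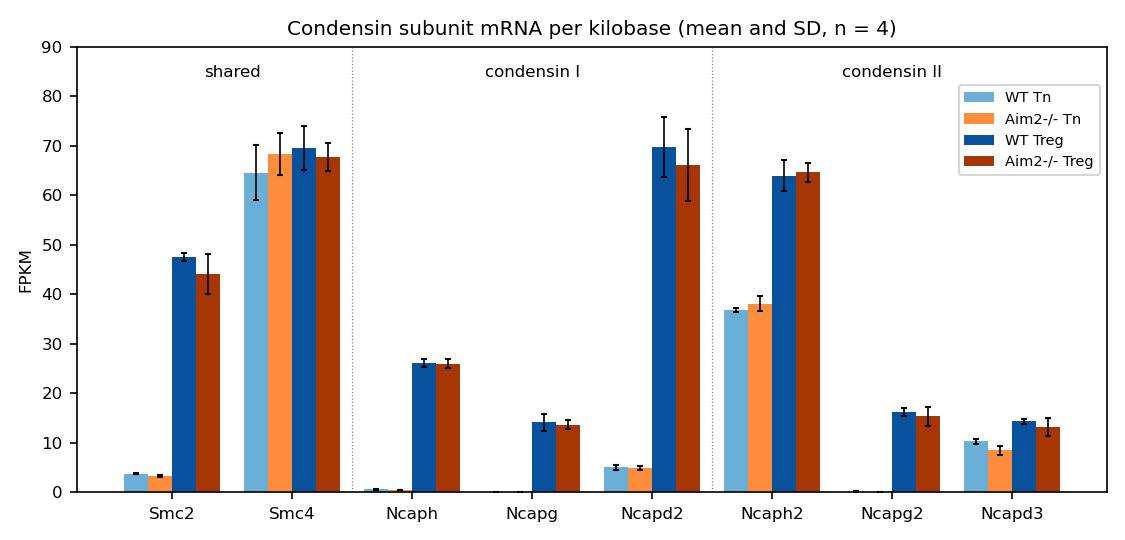
Bars give the mean FPKM and whiskers the SD of 4 libraries for the condensin subunits in the 4 groups, ordered as the shared ring, condensin I and condensin II. The Smc4 bars stay between 64.6 and 69.6 FPKM in all groups, whereas the Ncaph and Ncapg bars are under 1 FPKM in Tn and between 13.7 and 26.2 in Treg.

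Top2a, topoisomerase II alpha, and Mki67, the Ki-67 protein that coats mitotic chromosomes and is the usual marker of cycling cells, were the most abundant members in WT Treg by either scale, while in Aim2-/- Treg Cdc20 had more FPKM than Mki67. Top2a was at 8.24, 10.3, 10.5 and 8.63 CPM in WT Tn and 1327, 1310.1, 1199 and 1219 CPM in WT Treg, a log2 fold change of 7.02 (SE 0.11, edgeR adjusted p = 5.1e-10). Mki67 had 4.48, 5.12, 11.3 and 10.4 CPM in WT Tn and 1302, 1494, 1355 and 1261 CPM in WT Treg, with a log2 fold change of 7.38 (0.35, edgeR adjusted p = 8.7e-08). In FPKM, WT Treg had 140.2 ± 7.12 of Top2a, 135 ± 10.1 of Mki67 and 117 ± 6.66 of Cdc20, the 3 highest, and 3.701 ± 0.198 of Anln, the lowest. The means of Top2a and Mki67 lay within 1 SD of each other.

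The mitotic kinesins all rose. Kif4, the chromosome-arm kinesin KIF4A, was at 0.276, 0.0394, 0.545 and 0.775 CPM in WT Tn, with replicate 2 under the floor, and 125, 122, 105 and 102 CPM in WT Treg (log2 fold change 8.03, SE 0.38, edgeR adjusted p = 7.8e-08). Kif20b, the kinesin MPP1 of the midbody, had 10.3, 9.81, 9.42 and 10.5 CPM in WT Tn and 67.3, 72.3, 80.4 and 79.7 CPM in WT Treg, the smallest change of the kinesins at 2.84 (0.089, edgeR adjusted p = 4.7e-09). Kif23 (MKLP1, the kinesin of centralspindlin) rose by 3.28, less than its partner Racgap1, which rose by 5.03, and the difference between these values was not tested. Kif2c (MCAK), Kif15, Kif20a (MKLP2) and Kif22 (Kid) had log2 fold changes of 7.71, 7.34, 6.15 and 4.92.

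In spindle assembly and cytokinesis the largest change in WT was that of Tpx2, the activator of Aurora A on spindle microtubules. Tpx2 was at 0.827, 0.315, 1.38 and 0.977 CPM in WT Tn and 281, 274, 279 and 285 CPM in WT Treg (log2 fold change 8.26, SE 0.28, edgeR adjusted p = 9.1e-09). Ect2, the exchange factor that activates RhoA at the cleavage site, had the smallest, from 1.999, 1.85, 2.39 and 1.79 CPM to 52.8, 58.6, 59.9 and 62.7 CPM (4.81, SE 0.12, edgeR adjusted p = 1.3e-09). Between them in WT lay Nusap1 (7.40), Shcbp1 (7.27), Anln (anillin, 6.62), Prr11 (6.17), Prc1 (5.35) and Racgap1, whereas in Aim2-/- cells Shcbp1 (8.31) was above Tpx2 (8.23).

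The genotypes were then compared in Tn cells, where 38 of the 42 genes passed the filter and Ttk, Anln, Bub1 and Shcbp1 did not. No gene was called in either direction by edgeR (0.134% of all genes tested were called higher in Aim2-/- and 0.0967% lower), and limma-voom and DESeq2 also called none of those they gave an adjusted p. At an unadjusted p under 0.05 there were 4 lower genes and 1 higher gene, 5 of 38, where 4.75% of all genes were lower and 5.59% higher at that level. The fold change was below 0 for 29 of the 38 genes (76.3%, against 47.3% of all genes tested), with a median of -0.17 against 0.01 over all genes. In 4 genes the genotypes did not overlap and Aim2-/- was the lower (10.5% of the 38, against 3.84% of all genes), and in 1 gene it was the higher (2.63%, against 3%).

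Kif23 had the smallest p. It was at 9.37, 9.42, 12.02 and 9.54 CPM in WT Tn and 8.13, 5.598, 5.97 and 8.33 CPM in Aim2-/- Tn, which gave -0.50 on the log2 scale (SE 0.17, unadjusted p = 0.0122, edgeR adjusted p = 0.404). The groups did not overlap, and replicate 3 of WT was above the others. Prr11, a proline-rich protein of cycling cells, was near the floor, at 0.724, 0.66998, 0.628 and 0.539 CPM in WT Tn against 0.336, 0.278, 0.476 and 0.225 CPM in Aim2-/- Tn, without overlap (log2 fold change -0.94, SE 0.32, edgeR adjusted p = 0.415). For Ncaph the Aim2-/- values were tight, 1.87, 1.92, 1.76 and 1.83 CPM, below 2.31, 2.36, 2.81 and 2.898 CPM in WT (log2 fold change -0.47, SE 0.18, edgeR adjusted p = 0.427). Fitted with all 16 libraries, Ncaph passed the threshold (-0.49, edgeR adjusted p = 0.0449), the only one of the 38 that did (0.246% of all genes were called lower in that fit). That fit estimates the spread over Tn and Treg together. If the spread beyond counting error is smaller in Treg, which was not tested, its p-values may be too small for Tn.

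Top2a overlapped between genotypes, at 9.25, 6.31, 5.42 and 6.27 CPM in Aim2-/- Tn against 8.24, 10.3, 10.5 and 8.63 in WT Tn (log2 fold change -0.44, SE 0.18, edgeR adjusted p = 0.433). Outside the rule for named genes, and named because they were few, Smc2 did not overlap either, at 19.7, 17.1, 17.1 and 17.98 CPM against 19.99, 20.1, 21.3 and 20.7 CPM in WT (log2 fold change -0.17, edgeR adjusted p = 0.536), and Plk1 was the gene that lay higher in Aim2-/-, at 2.72, 3.495, 2.53 and 2.83 CPM against 1.69, 1.89, 2.39 and 2.39 CPM (0.49, edgeR adjusted p = 0.444). By role, the fold change was below 0 for 6 of 7 genes in the condensin, topoisomerase and Ki-67 group, 6 of 7 kinesins, 4 of 4 tested checkpoint and APC/C genes and 4 of 5 genes of CDK1 and its cyclins, and for 2 of 5 kinases and passenger genes.

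**Figure D4:**
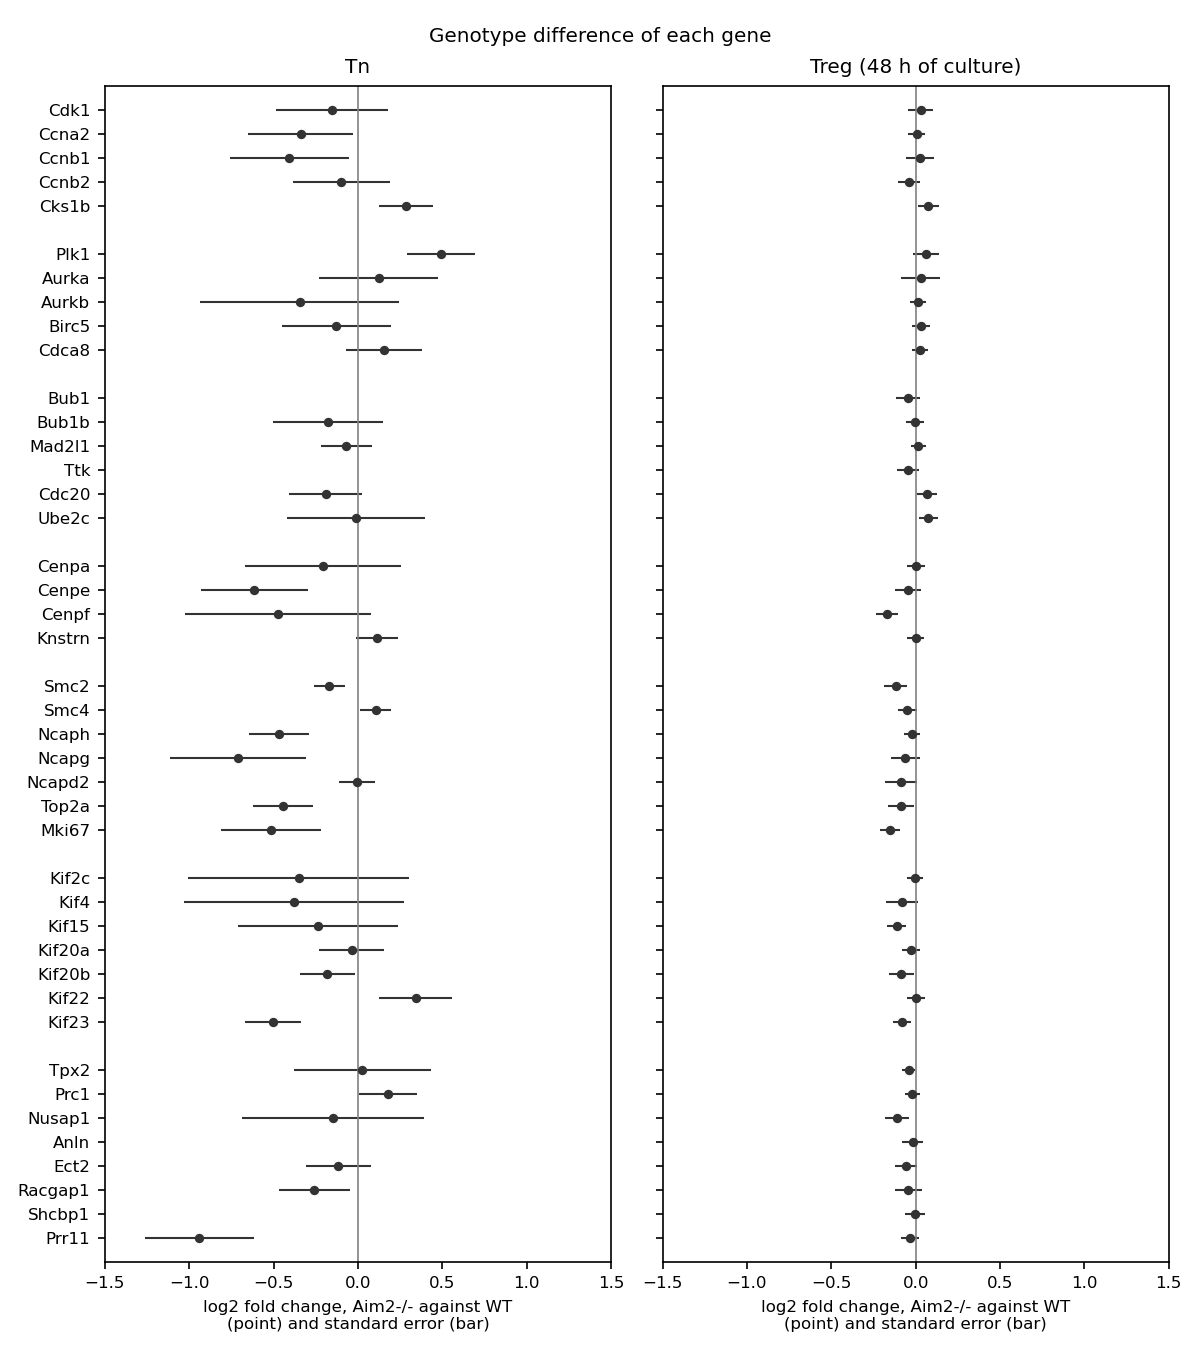
Points give the log2 fold change of Aim2-/- against WT and bars 1 standard error, in Tn (left) and in Treg (right), with the genes in the same order in both panels. No point is called. The Tn points run from -0.94 (Prr11) to 0.49 (Plk1), with 4 genes not tested, and the Treg points from -0.17 to 0.08.

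The predominance of lower values in Aim2-/- Tn changed with the WT libraries used. In WT Tn, 24 of the 38 genes were higher in both replicates 3 and 4 than in replicates 1 and 2, and 5 were lower in both (Aurka, Mad2l1, Cdc20, Cenpa and Prr11), where 34.1% of all genes tested were higher and 34.1% lower. In Aim2-/- Tn the same split gave 7 and 6 genes, where 19.5% and 20.4% of all genes were so split. The Treg libraries were also split, with 9 of 42 genes higher and 15 lower in WT (26.1% and 24.6% of all genes). In Aim2-/- Treg it was 15 and 10 genes (32.7% and 29.6% of all genes). Without WT Tn replicate 3, 20 of 37 genes had a fold change below 0 and the median was -0.02. Without WT Tn replicate 4 it was 27 of 37, with a median of -0.17. With replicates 1 and 2 alone there were 12 of 28 genes, with a median of 0.03, and with replicates 3 and 4 alone 23 of 33, with a median of -0.25. The latter fit called 2 of the 33 genes lower in Aim2-/- (1.8% of all genes), Mki67 (-1.09, edgeR adjusted p = 0.0197) and Cenpe (-1.28, edgeR adjusted p = 0.0466), for which replicates 1 and 2 alone gave 0.27 and 0.17. Replicates 3 and 4 were set apart after the WT Tn values were seen. The adjusted p-values of that fit are therefore no valid test of a genotype difference.

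These genes, chosen after their values were seen, differ in the direction of the split. Mki67 was at 4.48, 5.12, 11.3 and 10.4 CPM in WT Tn and 5.93, 5.47, 5.82 and 4.34 CPM in Aim2-/- Tn, and Cenpe at 1.24, 1.42, 2.68 and 2.63 CPM and 1.75, 1.21, 1.24 and 0.933 CPM. In both, WT replicates 3 and 4 were above the other 6 Tn libraries. Cenpa had 79.7, 95.3, 24.5 and 29.3 CPM in WT Tn against 52.2, 62.7, 33.4 and 46.5 CPM in Aim2-/- Tn, and Aurka 10.5, 9.58, 3.27 and 4.55 CPM against 9.92, 7.64, 6.15 and 6.24 CPM. In these, WT replicates 3 and 4 were the lowest of the 8 libraries. The activated or regulatory list (mainly through Ctla4 and Icos), the naive list and the plasma cell list followed Cenpa and Aurka in this split. The part of this difference between libraries in the genotype values was not tested beyond the fits without these libraries. The erythroid and B cell sums, all under 8 CPM, moved with genotype in Tn, and their part was not tested.

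**Figure D5:**
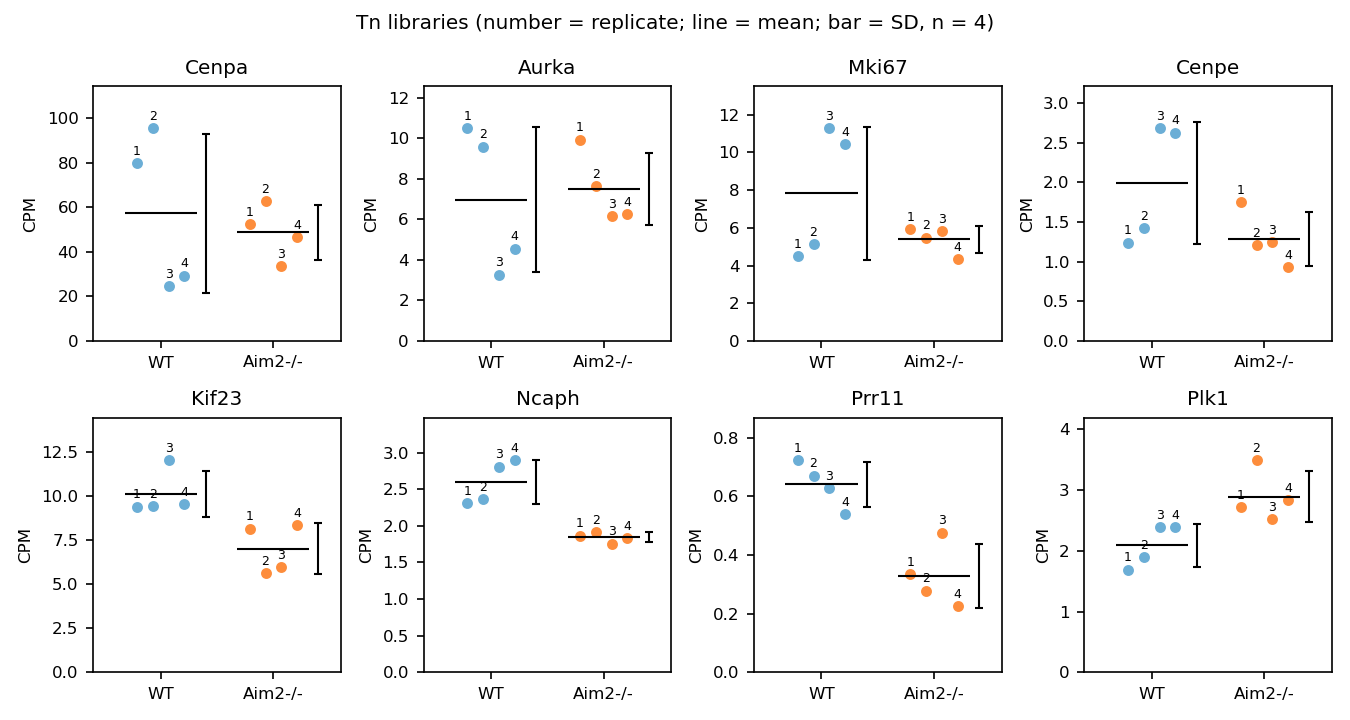
Each panel shows the CPM of 1 gene in the 4 WT Tn and the 4 Aim2-/- Tn libraries, with the replicate number at each point, the mean as a line and the SD as a bar. WT replicates 3 and 4 are the lowest for Cenpa and Aurka and the highest for Mki67 and Cenpe, and the genotypes do not overlap for Kif23, Ncaph, Prr11 and Plk1.

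In Treg cells the genotypes differed by less. All 42 genes were tested and none was called by edgeR, DESeq2 or limma-voom (0.129% of all genes were called higher and 0.0908% lower by edgeR). At an unadjusted p under 0.05 there were 2 genes, both lower in Aim2-/-, where 1.35% of all genes were lower and 0.961% higher. The fold change was below 0 for 28 of 42 genes (66.7%, against 49.9%), the median was -0.03, and the whole range was from -0.17 to 0.08. All 7 genes of the condensin, topoisomerase and Ki-67 group and all 8 of spindle assembly and cytokinesis were below 0, and all 5 kinases and passenger genes were above 0 (4 of 5 with scaling by library totals), with role medians of -0.08, -0.04 and 0.03. None of these values passed the test.

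Cenpf was the only gene whose Treg libraries did not overlap between genotypes (0.945% of all genes were lower without overlap). It had 139.9, 156, 142 and 136 CPM in WT Treg and 131, 133, 133 and 118 CPM in Aim2-/- Treg, a log2 fold change of -0.17 (SE 0.065, unadjusted p = 0.0276, edgeR adjusted p = 0.999). Mki67 was at 1302, 1494, 1355 and 1261 CPM and 1199.9, 1216, 1304 and 1184 CPM (-0.15, SE 0.06, unadjusted p = 0.0298, edgeR adjusted p = 0.999), with replicate 3 of Aim2-/- inside the WT range. Kif15 had a log2 fold change of -0.11 (SE 0.056) and Smc2 of -0.12 (0.068), each with edgeR adjusted p = 0.999. Kif15 lay at 122, 120.05, 124 and 114 CPM in WT Treg against 119.999, 113, 107 and 108 CPM in Aim2-/- Treg, and Smc2 at 266, 259.6, 260.5 and 256 CPM and 259, 262, 229 and 217 CPM, and both overlapped. Leaving out 1 library moved Mki67 to -0.10 (WT Treg replicate 2) and Smc2 to -0.07 (Aim2-/- Treg replicate 4). With scaling by library totals alone, 33 of 42 genes were below 0 and the median was -0.05.

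Whether culture changed the genotype difference was tested as an interaction over all 16 libraries. This fit estimates the spread of a gene over Tn and Treg together. The libraries varied more in Tn (median coefficient of variation 24.4% and 24.1%) than in Treg (5.06% and 5.33%). Its p-values may therefore be too small where the difference lies in Tn. No member was called, and 3 of the 14669 genes tested were (0% higher and 0.0205% lower). At an unadjusted p under 0.05 there were 6 members, 5 above and 1 below 0, where 1.77% of all genes were above and 1.72% below. DESeq2 and limma-voom called no member either. A value above 0 means that Aim2-/- relative to WT was higher in Treg than in Tn. The interaction was above 0 for 32 of the 42 genes (76.2%, against 50% of all genes), with a median of 0.19. Without WT Tn replicate 3 it was above 0 for 23 of 42. Ttk, Anln, Bub1 and Shcbp1, not tested in Tn, passed the filter here only through their level in Treg. All were above 0 (0.62, 0.89, 0.59 and 1.02), and Anln and Shcbp1 were among the 5 at an unadjusted p under 0.05. Of the 27 genes with 10 counts in every library, 9 were below 0 and the median was 0.097. Prr11 had the smallest p (0.92, SE 0.21, edgeR adjusted p = 0.734), and in Treg it was at 48.8, 45.9, 48.97 and 48.3 CPM for WT against 46.1, 44.9, 49.96 and 47.9 CPM for Aim2-/-, which overlapped. Ncaph (0.46, SE 0.12, edgeR adjusted p = 0.734) was at 113, 116, 108 and 114 CPM and 109, 116, 114 and 108 CPM in Treg. Kif23 (0.43, edgeR adjusted p = 1.000) and Shcbp1 (1.02, edgeR adjusted p = 1.000) followed, and Shcbp1 was at 0.448, 0.315, 0.335 and 0.438 CPM in WT Tn and 0.112, 0.0619, 0.146 and 0.418 CPM in Aim2-/- Tn, near or under the floor in some libraries. Without Aim2-/- Tn replicate 4 the Shcbp1 interaction was 1.83 (edgeR adjusted p = 0.185), and it was 0.72 at its lowest, without replicate 2 of that group.

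The mean over the 42 genes of log2 CPM, given as a description with no test, was 1.18 ± 0.264 in WT Tn (0.859 to 1.47 over the libraries), 0.974 ± 0.131 in Aim2-/- Tn (0.857 to 1.096), 7.17 ± 0.0199 in WT Treg and 7.15 ± 0.0247 in Aim2-/- Treg (mean and SD, n = 4). The Tn libraries of the genotypes overlapped, with the highest values in WT replicates 3 and 4. In Treg the difference, Aim2-/- minus WT, was -0.0178, smaller than the SD of either group, and with scaling by library totals it was -0.0504, larger than either SD.

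Beside the 42 genes, 144 other genes of mitosis were followed as lists. In WT Treg against WT Tn 118 were called higher and 12 lower (37.7% and 39.2% of all genes tested), and in Aim2-/- cells 122 and 12 (39.1% and 40.2%). Within Tn only 127 of the 144 passed the filter on low counts, and the rest were tested here only through their level in Treg. The same holds for those of the 127 with under 10 counts in some Tn libraries of the genotype compared. Espl1, at 0.207 and 0.237 CPM in WT Tn replicates 1 and 2, is an example, and the number of such genes was not counted. Of the kinetochore and checkpoint genes 36 of 38 were higher in WT, with Nuf2, a subunit of the NDC80 complex, highest (7.52) and Cenpq lowest (0.33). Of the other kinesin and spindle genes 27 of 32 were higher and 2 lower, from 8.26 for Hmmr, a spindle protein, to -0.84 for Numa1, which organizes spindle poles. The enzymes that switch mitosis on and off (13 of 16 higher, 1 lower) ran from 7.53 for Cdc25c, the phosphatase that activates CDK1, to -0.78 for Ensa, an inhibitor of the phosphatase PP2A. Cdc25c was near or under the floor in WT Tn (0.069, 0.079, 0.126 and 0.101 CPM), so its value depends on how counts near 0 are treated. Nuf2 and Hmmr were under 1 CPM in every WT Tn library.

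APC/C subunits and regulators had a median of 0.73 (15 of 19 higher, 3 lower), with Espl1, the separase, at 7.96 and Pttg1, its inhibitor securin, at -1.46. Cohesin and condensin II had a median of 0.51 (11 of 16 higher, 3 lower), with the cohesin acetyltransferase Esco2 at 8.71 and the loader subunit Mau2 at -1.34. The value of Esco2 also depends on counts near 0, as its WT Tn libraries had 0.034, 0, 0.168 and 0.101 CPM. Espl1 and E2f8 were under 1 CPM in every WT Tn library. Of the transcription factors 16 of 23 were higher and 3 lower, from E2f8, a repressor, at 7.72 to Rbl2, the p130 subunit of DREAM, at -1.74. The medians of all 6 lists lay below that of the 42 genes. In the genotype comparisons and in the interaction none of the 144 genes was called by edgeR, where at most 0.134% of all genes were called in either direction. At an unadjusted p under 0.05 there were 2 higher and 15 lower in Tn (5.59% and 4.75% of all genes), 0 and 2 in Treg (0.961% and 1.35%) and 12 above and 0 below 0 in the interaction (1.77% and 1.72%). List genes that were not tested in Tn entered the interaction only through their level in Treg. In Tn 77 of 127 tested were below 0, where 47.3% of all genes were, and in Treg 84 of 144, where 49.9% were. These counts come from the same libraries as those of the 42 genes and are no independent result. In Tn the values of the 42 genes changed with the WT libraries used, and the lists were not refitted without any library.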

How the data were processed

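The authors made stranded mRNA libraries, aligned single-end reads to GRCm38 by STAR, counted them per gene by RSEM with GENCODE m15, and deposited the expected count of every gene, not normalized. The strand setting of the counting is not given in the sources used here. Groups and replicate numbers came from the titles in the labels, and the names of the deposited files number some libraries differently.

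Expected counts were rounded. Genotypes within each state, and states within each genotype, were compared on 8 libraries with edgeR 4.0.16 in R 4.3.3 (TMM, robust quasi-likelihood fit, two-sided F test), keeping genes that reached 10 counts in 4 or more of these libraries. The interaction used all 16. Adjustment was by Benjamini-Hochberg over every gene tested, and a gene with an adjusted p under 0.05 is called higher or lower. Levels in CPM use TMM factors over 16 libraries, mean log2 CPM a prior count of 2, and FPKM is CPM per kilobase of merged exons in GENCODE M21. Merged exons take in every annotated transcript of a gene, so FPKM compared between genes depends on which transcripts were present. This was not tested. Of the 42 genes, 15 had a count that was not whole (beyond 0.001) in at least 1 library and 24 overlap another annotated gene, so reads there may be shared.

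Alternatives were DESeq2 1.42.0, limma-voom (limma 3.58.1), RLE or library-total scaling, other filters, a replicate block, replicates 1 and 2 against 3 and 4, and leaving out each library. The fit was also run on simulated counts of the Tn genotype comparison, as a check of the procedure alone. The simulated counts held no split within WT Tn, and that run bears on none of the results above. The 42 genes and all lists were chosen with earlier results of these data known. Genes named were the largest and smallest change of each role, 5 set genes (Mki67, Top2a, Cdk1, Ccnb1 and Birc5), the 4 smallest p-values of each genotype comparison, and the extremes of each list. Replicates 1 and 2 were set beside 3 and 4 because the WT Tn libraries part that way, and the labels name no batch.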

Additional observations from a re-analysis of the deposited data

Results flagged for a closer look

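In 4 of the 172 sets of 4 libraries (42 genes and their mean in 4 groups), 1 library lay apart from the other 3 by more than Dixon's 95% limit for the gap divided by the range, and chance alone marks about 1 in 20 such sets. Kif23 was 12.02 CPM in WT Tn replicate 3 against 9.37 to 9.54 in the others (ratio 0.930), and this is the group from which its genotype difference in Tn was measured. Without that library the log2 fold change of Kif23 was -0.41. Plk1 was 173 CPM in WT Treg replicate 4 against 149 to 153 (0.836), and Aurka 117 CPM in the same library against 95.1 to 97.7 (0.871). Ect2 was 53.7 CPM in Aim2-/- Treg replicate 1 against 57.4 to 57.9 (0.894).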

How the results depend on the processing

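The 41 genes called higher in Treg were between 40 and 41 of 42 in both genotypes under every alternative that kept all 42 genes. With 10 counts required in every library 27 of 28 genes left were called in Aim2-/- cells and 30 of 31 in WT. In Tn, genes called lower in Aim2-/- numbered 1 with all 16 libraries in one fit (Ncaph) and 2 with replicates 3 and 4 alone, and 0 in the other fits. No gene was called in the Treg genotype comparison or the interaction in any fit. Smc4 in WT ranged from -0.0094 (without WT Tn replicate 2, where its sign turned) to 0.13 when 1 library was left out. The mean log2 CPM difference between Treg and Tn was 5.13 in WT and 5.23 in Aim2-/- over the 27 genes with 10 counts in every library, and the genotype difference in Treg was -0.050 with library totals alone. When 1 library was left out, the mean log2 CPM difference between genotypes ran from -0.308 (without WT Tn replicate 2) to -0.104 (without WT Tn replicate 3) in Tn, against -0.203, and from -0.0272 to -0.00651 (without Aim2-/- Treg replicate 1) in Treg. Of the counts and means, 266 alternative values lay within 1.5 times the count or within 1 SD between libraries of the mean reported and 6 did not, and of those of the named genes 861 kept direction and call and 3 did not (Smc4 above, Ncaph above and Cenpa without a filter). Over all genes, DESeq2 called 128 in Tn and 52 in Treg, against 31 and 29 by edgeR, and replicates 3 and 4 alone called 516 in Tn. The cause was not tested.

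With the replicate block, the calls were 41 and 41 for Treg against Tn and 0 in Tn, in Treg and in the interaction. Same-numbered libraries of the genotypes deviated from their group means with correlations of 0.0287 to 0.346 in Tn and -0.0196 to 0.488 in Treg. The means were 0.164 and 0.297, against -0.0545 and -0.0993 for libraries with different numbers. Whether equal numbers mark shared handling was not tested. The study describes no pairing and the numbers differ between titles and file names for some libraries, so the main fits did not pair samples. Depth limits the Tn comparison: 4 genes could not be tested there, and 11 others had under 10 counts in at least 1 Tn library.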
